A study of Homo sapiens with 9 samples.

Results

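The genes of ribosome biogenesis described here are 37 protein-coding genes, taken as the rows of a deposited count table whose Ensembl identifiers map to a list of symbols. All 37 have a row among the 67071 rows of the table. They were sequenced in 22Rv1 cells, an established human prostate carcinoma line that expresses the androgen receptor, carrying a short hairpin RNA against CHD9, a chromodomain helicase, or against GFP, a sequence the human genome does not hold. There are 3 libraries with CHD9 hairpin 1, 3 with CHD9 hairpin 2 and 3 with the GFP hairpin (shGFP). Every library is labelled as the wild-type genotype, and the labels name no further allele, agent or time point. The labels say neither where the hairpins bind nor whether the cells were pools or clones. They number the replicates without tying them to separate cultures, so a p-value here measures the spread among these libraries only, and that spread may be technical.

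Ribosomes are made in the nucleolus, where RNA polymerase I transcribes a long precursor of the 18S, 5.8S and 28S ribosomal RNAs. Small nucleolar ribonucleoprotein particles of the box C/D and box H/ACA classes guide methylation and pseudouridylation of that precursor, the small subunit processome assembles on it to build the 40S subunit, and a separate set of factors builds the 60S subunit. Proliferating cells, prostate cancer cells included, invest heavily in this pathway, and many of its genes are known targets of MYC, which binds the E-box sequence. The sequencing libraries were made from polyadenylated RNA, so the transcripts of RNA polymerase I themselves were not measured.

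Library totals ran between 18911142 and 31968602 counts. CHD9 averaged 15.4 ± 1.07 CPM with hairpin 1 and 18.8 ± 0.465 CPM with hairpin 2, against 22.2 ± 1.42 CPM with shGFP (CPM, counts scaled to a common library total after TMM scaling; SD, n = 3 each). All 6 knockdown libraries were below all 3 controls. The log2 fold changes were -0.52 (SE 0.073, adjusted p = 7.2e-08) for hairpin 1 and -0.24 (SE 0.070, adjusted p = 0.0060) for hairpin 2, so the transcript fell with each, although leaving out shGFP replicate 3 ended the call for hairpin 2 (-0.20, adjusted p = 0.0542). With the correction for GC content and transcript length described below, the values were smaller and still called (-0.39, adjusted p = 1.1e-05, and -0.20, adjusted p = 0.015). Marker levels were summed as CPM on library totals without scaling factors, unlike the CHD9 levels above. All 9 prostate luminal markers passed the filter on low counts. Their summed level was 2230 to 2250 CPM (hairpin 1), 2160 to 2180 CPM (hairpin 2) and 1970 to 2020 CPM (shGFP). Fibroblast markers summed to 10.8 to 12.3, 10.7 to 13.6 and 9.04 to 9.71 CPM in the same order of groups, 4 of 6 having passed the filter. Endothelial, leukocyte and erythroid markers summed to at most 1.28 CPM in any library, and CDH5, KDR, CD3E and HBB had 0 counts throughout. The part of these levels in the results below was not tested, and in bulk RNA fewer cells of a type and less RNA per cell cannot be told apart.

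Of the 37 genes, 35 passed the filter on low counts and were tested. FBL, the methyltransferase of box C/D particles, had 0 counts in all 9 libraries. RRN3, which brings RNA polymerase I to the promoter, had 3, 8 and 7 counts with hairpin 1, 3, 6 and 2 counts with hairpin 2, and 5, 3 and 5 counts with shGFP. Both genes are generally active in dividing cells, so these values describe the table and not necessarily the cells. Neither shares an exonic base with another gene in GENCODE 29, but the annotation used for counting is not named, so overlaps in it were not checked. The cause of the low counts was not tested. NOP2, a cytosine methyltransferase of 28S ribosomal RNA, stood at 1.30 to 2.44 CPM over the 9 libraries. It shares 54.4% of its exonic length, 2550 bases, with AC006064.6 on the same strand. PPAN, a 60S assembly factor, stood at 5.18 to 7.45 CPM and shares 59.8% of its exonic length with PPAN-P2RY11 and P2RY11. Where 2 genes share exons the counting could have split or dropped reads, so the levels of NOP2 and PPAN are uncertain.

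The members made up 0.608% to 0.609% of all counts in the hairpin 1 libraries, 0.625% to 0.641% in the hairpin 2 libraries and 0.624% to 0.627% in the shGFP libraries. All 3 hairpin 1 libraries were below all 3 controls, and hairpin 2 overlapped them. These shares are of library totals without scaling factors. On such totals the median log2 fold change of all genes with hairpin 1 was -0.03. After TMM scaling the member median with hairpin 1 was 0.01, so the lower share is not a fall particular to the members. The changes of single members went both ways. For the mean of both hairpins against shGFP, 10 members rose, 9 fell and 16 did not pass an adjusted p under 0.05 (edgeR quasi-likelihood test, Benjamini-Hochberg over all 16855 genes tested). The called share was 54.3%, beside 45.5% of all genes tested, with 22.3% higher and 23.2% lower. Where the average was 5 CPM or more, 58% of genes were called, so the share among members was close to that of other expressed genes.

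The changes were small in size. The median log2 fold change of the tested members was 0.01, beside 0.00 over all genes tested. Their median absolute log2 fold change was 0.08, beside 0.17 over all genes and 0.14 over those of 5 CPM or more. The lowest value was -0.31 for WDR75 and the highest 0.20 for NOP16. WDR75 alone among the members was past 1.2-fold in either direction, as were 34.2% of all genes and 2719 of the 11176 genes of 5 CPM or more. With hairpin 1 and between the hairpins it was again the only one, beside 41.7% and 25.4% of all genes (3632 and 1602 of those of 5 CPM or more). With hairpin 2 no member was, beside 31.6% (2250 of those of 5 CPM or more).

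**Figure D1:**
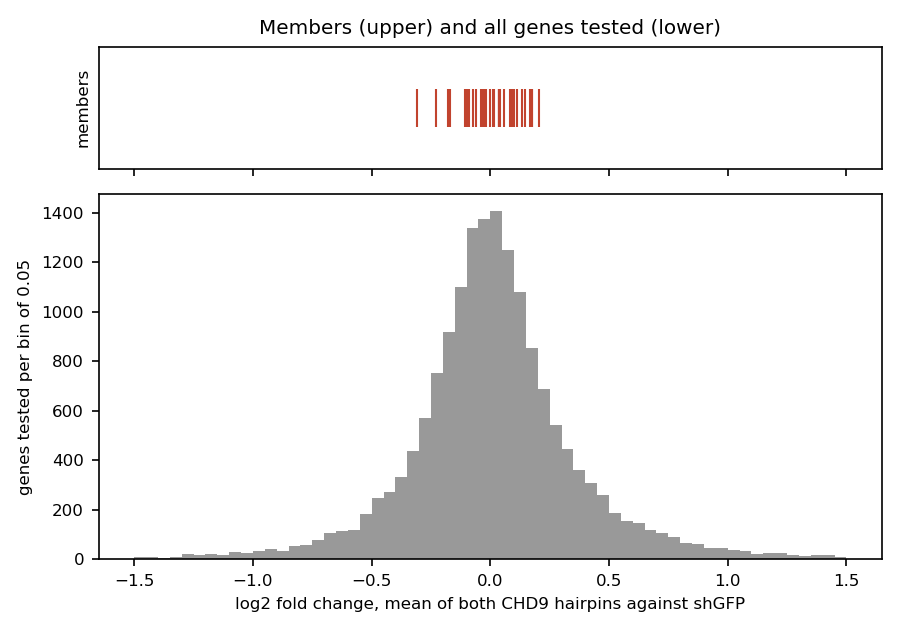
Log2 fold change, averaged over both CHD9 hairpins, relative to shGFP for the 35 tested members (upper ticks) and all 16855 genes tested (lower bars, genes per bin; 153 genes lie beyond the axis). The members lie between -0.31 and 0.20, in the middle of the distribution.

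With hairpin 1 alone, 9 members rose, 9 fell and 17 did not pass, a called share of 51.4% beside 47.3% of all genes tested (23.9% higher, 23.4% lower) and 60% of those of 5 CPM or more. On library totals without scaling factors the same contrast gave 7 higher and 12 lower, beside 3536 and 4545 of all 16855 genes. With hairpin 2 alone, 9 rose, 5 fell and 21 did not pass, 40% beside 35.7% of all genes (17.2% higher, 18.5% lower) and 46.4% of those of 5 CPM or more. Corrected for the GC content and length of the transcripts, as described below, the split was 8 higher and 2 lower. Over all 16855 genes that correction gave 2716 higher and 3426 lower. Both hairpins are compared with the same 3 shGFP libraries. Called higher with each hairpin were 6 members, POLR1A, POLR1B, RRP9, NHP2, NAT10 and NOP16, and 3 were called lower with each, NOP58, GAR1 and WDR75. Over all genes 13.2% were called higher and 13.6% lower with each hairpin. By library, 11 members had all hairpin 1 values above all shGFP values and 11 had them below, beside 27% and 26.9% of all genes, and for hairpin 2 the numbers were 9 and 6, beside 21.4% and 22.7%. The 6 genes called higher with each hairpin were also those with every knockdown library above every control, as 15.5% of all genes were. Every knockdown library was below every control for NOP58, GAR1, NOLC1, WDR75, WDR12 and RRS1, as was so for 16.2% of all genes. No member was called in opposite directions, as 0.86% of all genes were, and 12 were called with neither hairpin.

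**Figure D2:**
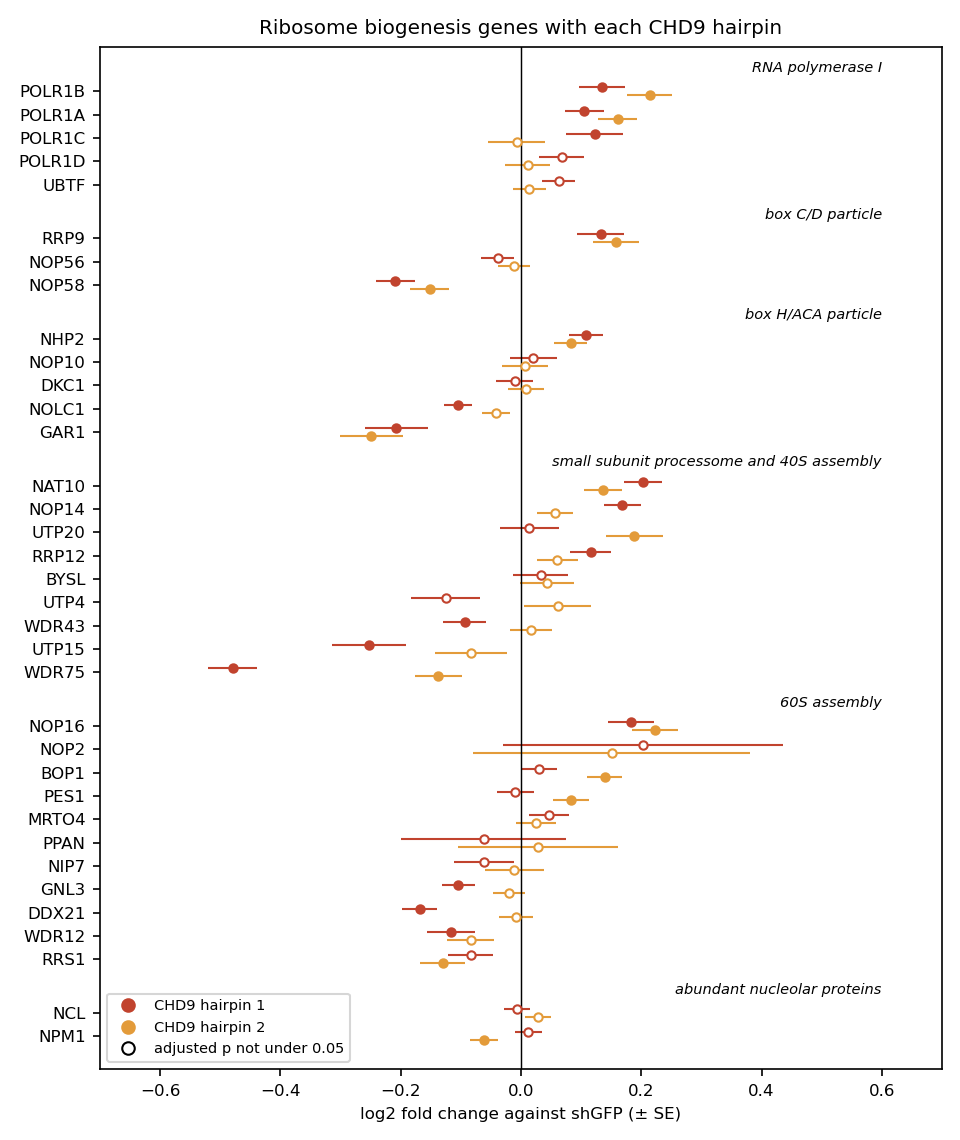
Log2 fold change (± SE) of the 35 tested members against shGFP for CHD9 hairpin 1 and hairpin 2, grouped by role, with filled points for an adjusted p under 0.05. Both hairpins of POLR1A and POLR1B lie right of 0, both of NOP58, GAR1 and WDR75 lie left of it, and WDR75 with hairpin 1 is the lowest point at -0.48.

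Fold changes moved with the base composition of the transcripts. The members called higher had a median GC content of 52.9% in their longest transcript and those called lower 41.3%, beside 54.5% and 43.3% for all genes called higher and lower. Across genes, which are not independent replicates and share the same libraries, Spearman's rho between GC content and log2 fold change was 0.56 over the 35 members and 0.32 over 16482 genes. With that trend and the trend with exonic length removed library by library, 8 members were called higher and 7 lower, beside 20.5% and 23.7% of all genes (44.2% in either direction). Of the 10 called higher, POLR1B, UTP20, NOP14, NAT10 and NOP16 kept the call, and of the 9 called lower, GAR1, NOLC1, WDR75 and RRS1 kept it. BOP1 and GNL3 were called with the opposite sign. NOP56 and PES1 (lower) and WDR43 and NPM1 (higher) gained a call. With hairpin 1 alone, NOP56, PES1, BOP1 and RRS1 (lower) and UTP20 and NPM1 (higher) gained one. With hairpin 2 alone, WDR43, GNL3 and DDX21 did so (higher), and between the hairpins POLR1A (lower with hairpin 1). Under all alternatives run other than the stricter thresholds, POLR1B, NAT10 and NOP16 stayed called higher and GAR1 and WDR75 lower in the mean of both hairpins. Whether composition is a property of the libraries or of the cells was not tested.

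**Figure D3:**
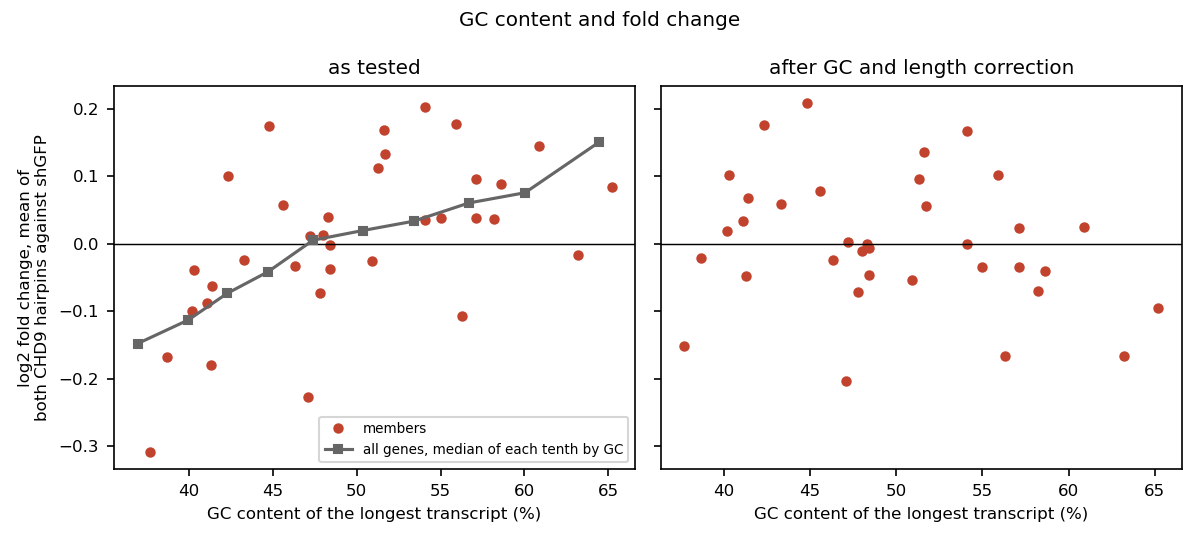
Log2 fold change (average of both CHD9 hairpins, relative to shGFP) plotted on GC content for the tested members, as tested (left, with a line through the medians of all genes binned by GC) and after the correction (right). On the left the line of all genes starts at -0.15 in the bin of lowest GC content and ends at 0.15 in the highest, and the members scatter around it.

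Of the 5 tested genes of RNA polymerase I and its factor UBTF, 2 rose and no other passed in the mean of both hairpins. The largest subunits, POLR1A and POLR1B, which together form the catalytic centre, rose with each hairpin. POLR1B (chr2:112541915-112577150, plus strand, GENCODE 29 on GRCh38) had 71.3, 71.3 and 70.8 CPM with hairpin 1, 76.0, 74.2 and 75.4 CPM with hairpin 2, and 64.5, 65.0 and 64.8 CPM with shGFP. The groups do not overlap, and each library of hairpin 2 is above each of hairpin 1. The log2 fold change was 0.14 (SE 0.038, adjusted p = 0.0032) for hairpin 1 and 0.21 (SE 0.038, adjusted p = 1.1e-05) for hairpin 2, and the difference between the hairpins did not pass (-0.08, adjusted p = 0.11). POLR1A averaged 144 ± 4.39 CPM with hairpin 1 and 149 ± 4.63 CPM with hairpin 2, against 133 ± 1.68 CPM with shGFP. Its log2 fold changes were 0.11 and 0.16, the first of which lost its call without hairpin 1 replicate 1 (0.08, adjusted p = 0.0633) and after the composition correction (0.01, adjusted p = 0.85).

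POLR1C and POLR1D, which form the assembly platform shared with RNA polymerase III, differed in their calls. POLR1C averaged 50.0 ± 1.05 CPM with hairpin 1 and 45.8 ± 1.89 CPM with hairpin 2, against 46.0 ± 1.78 CPM with shGFP. It was called with hairpin 1 (0.12, adjusted p = 0.031) and not with hairpin 2 (-0.01), and the hairpins differed (0.13, adjusted p = 0.032). Leaving out shGFP replicate 2 or 3 or hairpin 1 replicate 1 or 3 ended the hairpin 1 call (0.10 to 0.12), and leaving out hairpin 1 replicate 1 or 3 or hairpin 2 replicate 2 ended the difference (0.09 to 0.12). Exons of opposite-strand genes cover 18.2% of POLR1C. POLR1D passed with neither hairpin (0.07 and 0.01). UBTF, the upstream binding factor that coats the ribosomal DNA repeats, had 246, 235 and 238 CPM with hairpin 1, 233, 233 and 229 CPM with hairpin 2, and 233, 230 and 225 CPM with shGFP. Hairpin 1 is just above the controls and hairpin 2 overlaps them, and neither passed (0.06, adjusted p = 0.058, and 0.01, adjusted p = 0.75). The hairpin 1 value passed without hairpin 1 replicate 2 (0.08, adjusted p = 0.0423), hairpin 2 replicate 1 (0.06, adjusted p = 0.0429) or hairpin 2 replicate 3 (0.06, adjusted p = 0.0472).

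The box C/D group split. RRP9, the protein specific to the U3 particle, which is needed for the first cleavages of the precursor, had 82.4, 85.6 and 78.9 CPM with hairpin 1, 85.4, 83.7 and 81.9 CPM with hairpin 2, and 77.4, 74.2 and 73.7 CPM with shGFP. Every knockdown library was above every control. The log2 fold change was 0.13 (SE 0.039, adjusted p = 0.0041) with hairpin 1 and 0.16 (SE 0.038, adjusted p = 0.00086) with hairpin 2, and the composition correction ended both calls, with values of -0.0047 and 0.05. NOP58, a core scaffold protein of these particles, had 130, 124 and 130 CPM with hairpin 1, 138, 130 and 132 CPM with hairpin 2, and 146, 146 and 152 CPM with shGFP. It was lower in 6 of 6 knockdown libraries, with log2 fold changes of -0.21 (SE 0.033, adjusted p = 6.5e-07) and -0.15 (SE 0.032, adjusted p = 0.00017), and these too lost their calls after the correction (-0.03 and -0.06). NOP56, the partner scaffold of NOP58, overlapped the controls with each hairpin (-0.04 and -0.01, neither passing). Both scaffold genes carry small nucleolar RNA genes in their introns, 5 in NOP56 and 4 in NOP58.

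Among box H/ACA proteins GAR1 fell and NHP2 rose, while the pseudouridine synthase DKC1 and the small core protein NOP10 passed with neither hairpin. GAR1 (chr4:109815510-109824740, plus strand), a core protein that joins the mature particle and helps it turn over its substrate, had 45.4, 46.3 and 45.2 CPM with hairpin 1, 47.2, 45.9 and 39.2 CPM with hairpin 2, and 51.0, 56.0 and 51.0 CPM with shGFP. All knockdown libraries were below the controls, and hairpin 2 replicate 3 was the lowest. The log2 fold change was -0.21 (SE 0.053, adjusted p = 0.0011) with hairpin 1 and -0.25 (SE 0.052, adjusted p = 0.00016) with hairpin 2, and both calls held after the composition correction (-0.16 and -0.24). NHP2 had 248, 249 and 242 CPM with hairpin 1, 251, 234 and 241 CPM with hairpin 2, and 225, 230 and 230 CPM with shGFP.

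NHP2 was above the controls in each of the 6 libraries, with log2 fold changes of 0.11 (adjusted p = 0.0012) and 0.08 (adjusted p = 0.018). With hairpin 2 it no longer passed without shGFP replicate 1 (0.07) or hairpin 2 replicate 1 (0.06), and the composition correction left 0.03 and 0.02 with no call. Exons of RMND5B on the opposite strand cover 27.4% of NHP2. NOLC1, a nucleolar chaperone of these particles, averaged 418 ± 2.83 CPM with hairpin 1 and 436 ± 4.40 CPM with hairpin 2, against 449 ± 5.29 CPM with shGFP. Its value fell with hairpin 1 (-0.10, adjusted p = 0.00027) and did not pass with hairpin 2 (-0.04, adjusted p = 0.17). For DKC1 the 95% interval of the log2 fold change was -0.07 to 0.05 with hairpin 1 and -0.05 to 0.07 with hairpin 2.

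The small subunit processome and 40S factors held the largest change of the set. WDR75 (chr2:189441433-189475565, plus strand), a subunit of the UTP-A complex that binds the nascent precursor first, had 53.4, 56.2 and 55.0 CPM with hairpin 1, 68.7, 71.6 and 68.2 CPM with hairpin 2, and 74.3, 76.2 and 78.9 CPM with shGFP. The 3 groups are separate, with hairpin 1 lowest and hairpin 2 between it and the controls. The log2 fold change was -0.48 (SE 0.041, adjusted p = 1.8e-13) with hairpin 1 and -0.14 (SE 0.039, adjusted p = 0.0046) with hairpin 2, and the hairpins differed by -0.34 (SE 0.041, adjusted p = 5.94e-09). WDR75 has the lowest GC content of the tested members, 37.7%. After the composition correction the hairpin 1 value was -0.26 (adjusted p = 1.2e-07), and the hairpin 2 value lost its call (-0.04, adjusted p = 0.41). NAT10 (chr11:34105602-34147670, plus strand), which acetylates cytidines of 18S ribosomal RNA, went the other way.

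NAT10 had 142, 142 and 145 CPM with hairpin 1, 140, 134 and 135 CPM with hairpin 2, and 122, 126 and 125 CPM with shGFP. All 6 knockdown libraries were above the controls, by a log2 fold change of 0.20 (SE 0.032, adjusted p = 6.5e-07) with hairpin 1 and 0.14 (SE 0.031, adjusted p = 0.00053) with hairpin 2. NOP14, a processome component, rose with hairpin 1 (0.17, adjusted p = 1.0e-05) and not with hairpin 2 (0.06, adjusted p = 0.15). The export factor RRP12 did likewise (0.12, adjusted p = 0.0051, and 0.06), with the sign of both values turned by the composition correction (-0.05 and -0.03, not called). UTP20, a large scaffold of the processome, rose with hairpin 2 (0.19, adjusted p = 0.0015) and stood at 0.01 with hairpin 1. After the composition correction UTP20 was called higher with hairpin 1 too (0.11, adjusted p = 0.040). In the mean of both hairpins, UTP20 (0.10, adjusted p = 0.046) lost its call without shGFP replicate 1 or 2, hairpin 1 replicate 1 or 3 or hairpin 2 replicate 2 (0.07 to 0.11), and RRP12 (0.09, adjusted p = 0.015) without shGFP replicate 3 (0.07). BYSL, which acts late in 40S maturation, passed with neither. Exons of NOP14-AS1 on the opposite strand cover 17.1% of NOP14.

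The other UTP-A subunits of the set, UTP4, UTP15 and WDR43, were lower with hairpin 1 than with hairpin 2, as WDR75 was; this complex was singled out after its values were seen. The differences were -0.19 for UTP4 (adjusted p = 0.00874), -0.17 for UTP15 (adjusted p = 0.0301) and -0.11 for WDR43 (adjusted p = 0.0156). UTP4 averaged 29.9 ± 1.13 CPM with hairpin 1, 34.0 ± 1.83 CPM with hairpin 2 and 32.7 ± 0.798 CPM with shGFP. UTP15 averaged 24.6 ± 0.941, 27.6 ± 1.19 and 29.2 ± 1.31 CPM and WDR43 86.6 ± 2.32, 93.5 ± 0.427 and 92.4 ± 3.01 CPM in the same groups. Relative to shGFP, UTP15 (-0.25, adjusted p = 0.00061) and WDR43 (-0.09, adjusted p = 0.030) fell with hairpin 1, and none of these 3 passed with hairpin 2. The composition correction ended the UTP15 call with hairpin 1 (-0.05, adjusted p = 0.50). The fall of UTP15 in the mean of both hairpins (-0.17, adjusted p = 0.0071) was lost without shGFP replicate 3 (-0.13).

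Outside the set, the UTP-A subunit HEATR1 was also lower with hairpin 1 than with hairpin 2 (-0.28, adjusted p = 7.1e-10). NOL11 was lower with each hairpin than with shGFP (-0.16 and -0.17) and passed no difference between hairpins (0.01, adjusted p = 0.94). The composition correction ended both NOL11 calls (0.0067, adjusted p = 0.90, and -0.08, adjusted p = 0.062). After the composition correction WDR75, UTP4 and HEATR1 kept the hairpin difference (-0.22, -0.18 and -0.22), while UTP15 (-0.06) and WDR43 (-0.02) did not. The corrected hairpin 1 value of WDR43 against shGFP was 0.09, of the opposite sign and called. Its corrected hairpin 2 value was called higher as well (0.11, adjusted p = 0.0082). The UTP15 difference was lost without hairpin 1 replicate 1 or 3 or hairpin 2 replicate 2 (-0.18 to -0.13) and the WDR43 difference without hairpin 1 replicate 1 or 3 (-0.10). The hairpin 1 call of WDR43 was lost without shGFP replicate 2 or hairpin 1 replicate 1 or 3 (-0.08 to -0.07). Exons of other genes cover 23.2% of HEATR1.

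**Figure D4:**
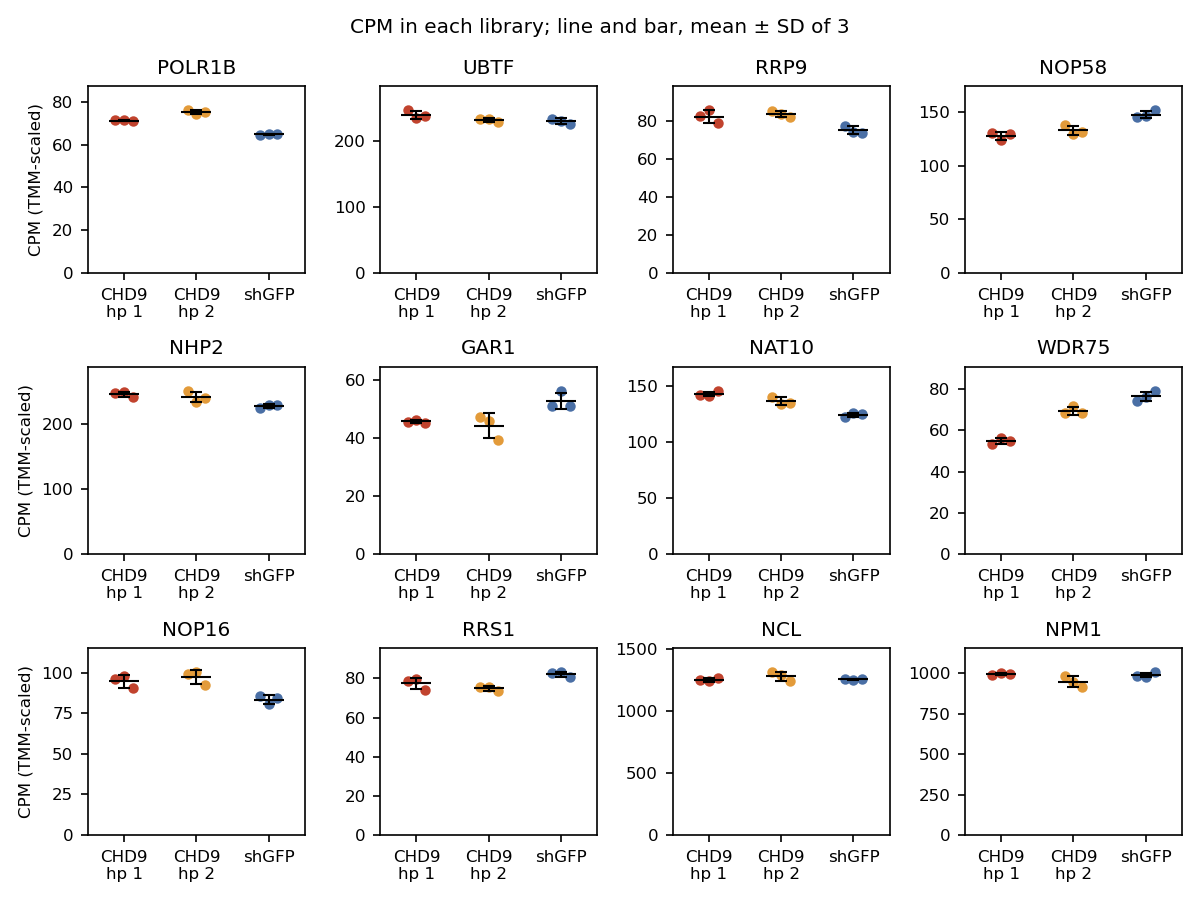
CPM in each of the 9 libraries for the highest and lowest member of each role, with group means and SD (n = 3), CHD9 hairpin 1 and hairpin 2 left of shGFP and each axis starting at 0. POLR1B, RRP9, NHP2, NAT10 and NOP16 lie above shGFP with both hairpins, NOP58, GAR1, WDR75 and RRS1 below it, and UBTF, NCL and NPM1 overlap it with at least 1 hairpin.

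Of the 11 genes of 60S assembly, 2 rose (NOP16 and BOP1) and 4 fell (WDR12, RRS1, GNL3 and DDX21) in the mean of both hairpins. NOP16 (chr5:176383938-176388975, minus strand), a nucleolar 60S assembly factor, had 96.5, 98.0 and 90.4 CPM with hairpin 1, 99.1, 100 and 92.5 CPM with hairpin 2, and 85.6, 80.7 and 84.3 CPM with shGFP. All 6 knockdown libraries were above all controls. The log2 fold change was 0.18 (SE 0.039, adjusted p = 0.00011) with hairpin 1 and 0.22 (SE 0.038, adjusted p = 6.6e-06) with hairpin 2. Exons of ARL10 and HIGD2A on the opposite strand cover 20% of NOP16. RRS1, which helps to bring the 5S ribonucleoprotein into the pre-60S particle, had 78.9, 79.4 and 74.3 CPM with hairpin 1, 75.8, 75.5 and 73.3 CPM with hairpin 2, and 82.6, 83.0 and 80.7 CPM with shGFP. It was below the controls in 6 of 6 libraries, passing with hairpin 2 (-0.13, adjusted p = 0.0049) and not with hairpin 1 (-0.08, adjusted p = 0.066). After the composition correction RRS1 was called lower with hairpin 1 too (-0.15, adjusted p = 0.00046). Exons of AC009879.2 on the same strand cover 11.4% of RRS1.

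PES1, BOP1 and WDR12 are partners in the PeBoW complex, which is needed to process the precursor of 28S ribosomal RNA, and they did not move together. PES1 averaged 147 ± 0.856 CPM with hairpin 1 and 157 ± 4.68 CPM with hairpin 2, against 148 ± 1.92 CPM with shGFP. BOP1 averaged 211 ± 7.12 CPM and 228 ± 0.859 CPM, against 207 ± 5.55 CPM. WDR12 averaged 69.7 ± 2.40 CPM and 71.5 ± 2.81 CPM, against 75.6 ± 1.39 CPM. PES1 (0.08, adjusted p = 0.027) and BOP1 (0.14, adjusted p = 0.00012) rose with hairpin 2, neither passed with hairpin 1 (-0.01 and 0.03), and both genes differed between hairpins (-0.09, adjusted p = 0.0161, and -0.11, adjusted p = 0.0028).

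WDR12 was called with hairpin 1 (-0.12, adjusted p = 0.015) and not with hairpin 2 (-0.08, adjusted p = 0.095). Composition separates the 3 genes, at 58.2% GC in PES1, 65.2% in BOP1 and 40.2% in WDR12. After the correction the hairpin 1 values were -0.15 (adjusted p = 1.4e-05), -0.20 (adjusted p = 4.9e-09) and 0.04 (adjusted p = 0.37), so their directions depend on it. The hairpin 2 calls of PES1 (0.01, adjusted p = 0.82) and BOP1 (0.01, adjusted p = 0.81) were lost with it. The PES1 call with hairpin 2 was lost without shGFP replicate 1 or 3 or hairpin 2 replicate 1 or 2 (0.07 to 0.08), and its hairpin difference without hairpin 2 replicate 1 (-0.08). The WDR12 call with hairpin 1 was lost without shGFP replicate 1 or 3 or hairpin 1 replicate 1 or 3 (-0.11 to -0.09), and that in the mean of both hairpins (-0.10) without shGFP replicate 1 or 3 or hairpin 2 replicate 2 (-0.09 to -0.08).

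GNL3, or nucleostemin, a nucleolar GTPase, and DDX21, a helicase that links transcription of the precursor to its processing, fell with hairpin 1 and stood near the controls with hairpin 2. GNL3 averaged 225 ± 6.01 CPM with hairpin 1 and 239 ± 4.91 CPM with hairpin 2, against 242 ± 1.66 CPM with shGFP. DDX21 averaged 252 ± 6.88 CPM and 281 ± 5.84 CPM, against 283 ± 10.9 CPM. The hairpin 1 values were -0.10 (adjusted p = 0.0016) and -0.17 (adjusted p = 3.4e-06), and the hairpins differed for each (-0.08, adjusted p = 0.0165, and -0.16, adjusted p = 1.78e-05). After the composition correction the hairpin 1 value was 0.07 (called higher) for GNL3 and -0.01 (not called) for DDX21, and of the hairpin differences that of DDX21 held (-0.08, adjusted p = 0.011). The GNL3 difference was lost without hairpin 1 replicate 3 (-0.06). In the mean of both hairpins GNL3 (-0.06) lost its call without any 1 shGFP library, hairpin 1 replicate 3 or hairpin 2 replicate 2 (-0.07 to -0.05), and DDX21 (-0.09) without shGFP replicate 3 (-0.05). MRTO4 and NIP7, further 60S assembly factors, passed with neither hairpin, nor did PPAN and NOP2, whose 95% intervals with hairpin 1, -0.34 to 0.21 and -0.27 to 0.67, are the widest of the set. Exons of COG8 on the opposite strand cover 20.2% of NIP7.

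Neither of the abundant nucleolar proteins passed in the mean of both hairpins or with hairpin 1. NCL, or nucleolin, had 1246, 1236 and 1263 CPM with hairpin 1, 1309, 1289 and 1240 CPM with hairpin 2, and 1256, 1248 and 1259 CPM with shGFP. The groups overlap, and the 95% interval of the log2 fold change was -0.05 to 0.04 with hairpin 1 and -0.01 to 0.07 with hairpin 2. NPM1, or nucleophosmin, a nucleolar chaperone, had 989.9, 1003 and 998 CPM with hairpin 1, 979.8, 947 and 914 CPM with hairpin 2, and 985, 976 and 1005 CPM with shGFP. Both hairpins overlap the controls, and hairpin 2 replicate 3 was the lowest. The hairpin 2 value was called (-0.06, adjusted p = 0.030) and lost that call without shGFP replicate 1 or 3, hairpin 1 replicate 1 or hairpin 2 replicate 2 or 3 (-0.06 to -0.04). The composition correction (-0.0048, adjusted p = 0.88), library totals without scaling factors (-0.05) and a fit of only the groups compared also ended it. With the composition correction NPM1 was instead called higher with hairpin 1 (0.12, adjusted p = 1.3e-06). Its corrected difference between the hairpins was 0.13 (adjusted p = 1.6e-06).

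Per exonic length, the members spanned a wide range of levels, and the order hardly depended on the hairpin. NPM1 stood highest at 260 ± 1.70 CPM per kb with hairpin 1, 247 ± 8.54 with hairpin 2 and 258 ± 3.82 with shGFP, followed by NCL at 180 ± 2.02, 185 ± 5.19 and 181 ± 0.804 CPM per kb. NHP2 (151 ± 1.96 CPM per kb with shGFP), NOP10 (131 ± 1.61) and NOLC1 (113 ± 1.33) came next, all of the H/ACA class, while GAR1 of the same class stood at 25.7 ± 1.39 CPM per kb. The subunits of RNA polymerase I lay between 6.68 ± 0.0723 (POLR1D) and 10.2 ± 0.0457 CPM per kb (POLR1B) with shGFP. At the low end were UTP15 (4.62 ± 0.208), PPAN (2.33 ± 0.135) and NOP2 (0.380 ± 0.101). Neighbours in the order with shGFP that do not differ beyond their spread include NOP56 and RRP9 (47.7 ± 0.525 and 47.6 ± 1.28 CPM per kb) and UTP20 and UTP15 (4.82 ± 0.362 and 4.62 ± 0.208).

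**Figure D5:**
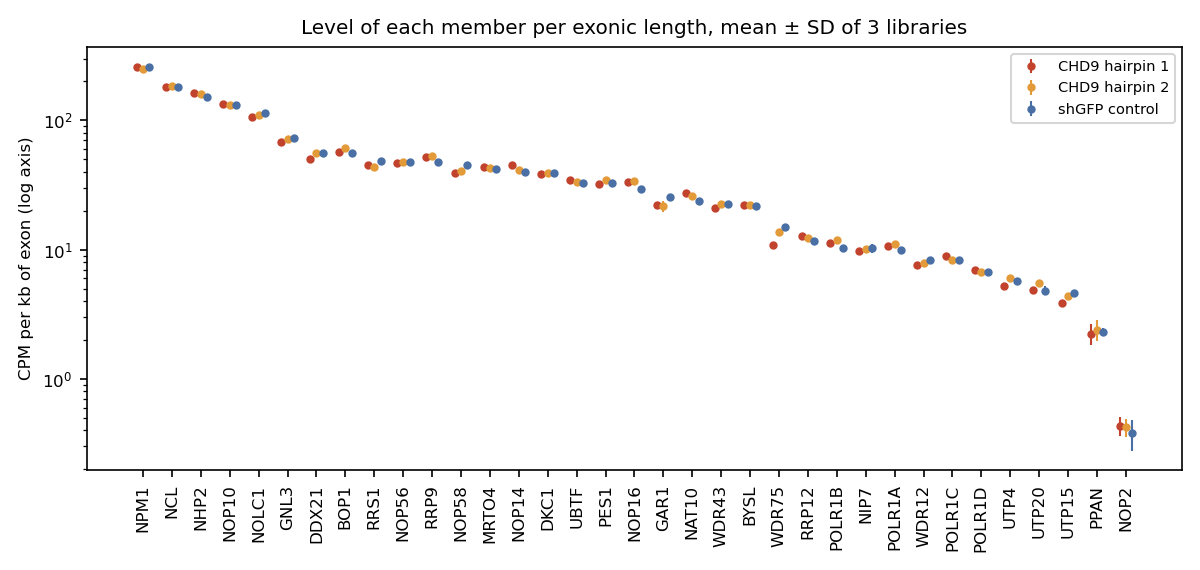
Mean CPM per kb of exon (log axis, ± SD of 3 libraries) of the 35 tested members for CHD9 hairpin 1, CHD9 hairpin 2 and shGFP, ordered by the shGFP level. NPM1 and NCL lead, NOP2 is lowest, and the 3 groups of a gene lie close together beside the distance between genes.

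Letter patterns, which the choice of genes did not use directly, were counted in the promoters of the set. RefSeq windows of 300 bases (250 before to 50 after a start, GRCh38.p14) matched 32 of the 37 genes with 41 windows. The E-box CACGTG, a palindrome, lies in 15 of the 41 windows, 36.6%, beside 7.26% of all 35116 windows. CCGGAAG, the core of an ETS site, searched on both strands, lies in 34.1% beside 10.3%, and CTCGCGAG in 7.32% beside 1.02%. TATAAA lies in 2.44% beside 11.5%, and GCATGCG, the core of an NRF1 site, in 2.44% beside 3.91%. None of the 5 patterns holds another within it. The E-box did not divide members by their response, being present in 4 of 8 genes called higher, 3 of 6 called lower and 7 of 16 that did not pass. The windows set beside those of the members are all RefSeq windows, not matched for expression or GC content. A match is a description of letters and not of binding.

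The 30 bases around the E-box (capitals) are shown, 5′ to 3′ on the gene's strand, for the 7 members with one that were called in the mean of both hairpins, first the 4 that rose and then the 3 that fell.
NAT10 (chr11:34105602-34105631, plus strand): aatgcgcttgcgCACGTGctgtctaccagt
NOP14 (chr4:2963374-2963403, minus strand): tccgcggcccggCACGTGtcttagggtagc
RRP9 (chr3:51941892-51941921, minus strand): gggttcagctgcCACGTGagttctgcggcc
UTP20 (chr12:101280083-101280112, plus strand): cttttttccgtcCACGTGacccactcaggc
GAR1 (chr4:109815781-109815810, plus strand): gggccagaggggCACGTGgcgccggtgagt
GNL3 (chr3:52686026-52686055, plus strand): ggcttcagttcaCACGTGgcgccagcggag
DDX21 (chr10:68956604-68956633, plus strand): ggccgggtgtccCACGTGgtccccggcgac
The E-box of the genes that rose begins at positions -15 (NAT10), 16 (NOP14), -5 (RRP9) and -10 (UTP20) relative to the RefSeq start, and that of the genes that fell at 32 (GAR1), 7 (GNL3) and -31 (DDX21). In both directions the motif thus starts within 32 bases of the RefSeq start.

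Hairpin 1 was then set directly against hairpin 2. Here 3 members were higher with hairpin 1 (POLR1C, NOP14 and NPM1), 10 were lower (NOLC1, WDR43, WDR75, UTP4, UTP15, UTP20, PES1, BOP1, GNL3 and DDX21) and 22 did not pass, 37.1% beside 29.2% of all genes tested (15.6% higher, 13.6% lower) and 40.3% of those of 5 CPM or more. On library totals without scaling factors the split was 0 higher and 15 lower, so the number in each direction depends on the scaling. All genes shifted too, with 1826 higher and 3189 lower of 16855 and a median log2 fold change of -0.04. Leaving out hairpin 1 replicate 3 left 8 member calls, 6 of them lower, beside 4029 calls over 17079 genes, 1834 of them lower. The NOLC1 difference (-0.06) was lost without any 1 hairpin 1 library, shGFP replicate 1 or hairpin 2 replicate 2 (-0.07 to -0.06), and the NPM1 difference (0.07) without hairpin 2 replicate 3 (0.05). CHD9 itself was lower with hairpin 1 (-0.28, adjusted p = 0.0024, and -0.18, adjusted p = 0.0487, after the composition correction). As each hairpin is a separate agent, however, knockdown depth and other effects of a hairpin cannot be told apart.

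A wider list of 129 other genes of the pathway gave a similar picture. Of the 122 that passed the filter, 22 rose and 32 fell in the mean of both hairpins (44.3%), 26 rose and 36 fell with hairpin 1 (50.8%, or 18 and 46 without scaling factors), and 21 rose and 22 fell with hairpin 2 (35.2%). Over all genes tested the called shares were 45.5%, 47.3% and 35.7%. Without scaling factors, 3536 of all 16855 genes rose and 4545 fell with hairpin 1. The median log2 fold change of the wider list was -0.01 in the mean of both hairpins. Among those of at least 5 CPM called alike in all 3 contrasts with shGFP, the highest were POLR2F, a subunit shared by all 3 nuclear RNA polymerases (0.42, adjusted p = 9.6e-14), MDN1, the giant ATPase that remodels pre-60S particles (0.28, adjusted p = 2.2e-09), POLR1G, a subunit of RNA polymerase I (0.27, adjusted p = 1.1e-08), NLE1, the pre-60S partner of MDN1 (0.21, adjusted p = 1.0e-05), and RRP8, a methyltransferase of 28S ribosomal RNA (0.21, adjusted p = 0.00060). Exons of PPP1R13L and ERCC1 on the opposite strand cover 45.1% of POLR1G, and those of FNDC8 cover 12.6% of NLE1.

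The lowest by the same rule were CEBPZ, a pre-60S factor (-0.38, adjusted p = 5.6e-14), NMD3, the adaptor for 60S export (-0.36, adjusted p = 1.1e-12), EXOSC9, a subunit of the RNA exosome (-0.29, adjusted p = 1.1e-08), MPHOSPH10 of the U3 particle (-0.29, adjusted p = 9.0e-08) and TAF1A of the SL1 complex, which selects the RNA polymerase I promoter (-0.27, adjusted p = 0.00010). POLR2F had 109, 101 and 107 CPM with hairpin 1, 93.5, 90.4 and 83.2 CPM with hairpin 2, and 70.5, 73.8 and 72.7 CPM with shGFP. CEBPZ had 71.0, 67.8 and 70.0 CPM with hairpin 1, 76.3, 75.5 and 73.5 CPM with hairpin 2, and 93.1, 93.9 and 95.7 CPM with shGFP. The groups of both genes are separate, and these 10 genes kept their calls in the mean of both hairpins after the composition correction (POLR2F 0.32, CEBPZ -0.23). Exons of opposite-strand genes cover 23.2% of CEBPZ. The hairpin 2 call of TAF1A was lost without shGFP replicate 1 or hairpin 2 replicate 1 (-0.15 and -0.12), and that of RRP8 without hairpin 2 replicate 3 (0.15). The composition correction ended the hairpin 2 calls of TAF1A (-0.11, adjusted p = 0.18) and EXOSC9 (-0.07, adjusted p = 0.24).

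Within RNA polymerase I and its factors the wider list thus went both ways, with 4 of 14 tested genes higher and 5 lower, beside 22.3% and 23.2% of all genes. Further genes named after their values were seen are the SL1 subunits TAF1C (-0.12, adjusted p = 0.0030) and TAF1D (-0.22, adjusted p = 3.1e-06) and the polymerase subunit POLR1F (-0.26, adjusted p = 2.0e-07), which were lower with each hairpin. The TAF1C call in the mean of both hairpins was lost without shGFP replicate 2 (-0.09), as were its hairpin 1 call (-0.08) and its hairpin 2 call (-0.11). Its hairpin 1 call was also lost without hairpin 1 replicate 2 or 3 (-0.10 and -0.11), its hairpin 2 call without hairpin 2 replicate 1 (-0.10) and the hairpin 2 call of POLR1F without shGFP replicate 3 (-0.12) and after the composition correction (-0.04, adjusted p = 0.42). The TAF1D call was lost after the composition correction (-0.07, adjusted p = 0.088). The shared subunit POLR2L was called higher with hairpin 1 (0.14, adjusted p = 0.0020) and lower with hairpin 2 (-0.15, adjusted p = 0.0020), and HEATR1 lower (-0.13, adjusted p = 0.00069) and higher (0.15, adjusted p = 7.9e-05). The composition correction ended the hairpin 1 calls of both (0.02 and 0.0026). Exons of CD151 on the opposite strand cover 22.5% of POLR2L. Of 14 genes of the RNA exosome and its cofactors, 0 rose, 5 fell and 9 did not pass in the mean of both hairpins, with a median of -0.07 (edgeR; 0 higher and 6 lower at an unadjusted p under 0.05). The called share, 35.7%, was below the 45.5% of all genes (23.2% lower) and the 58% of those of 5 CPM or more.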

How the data were processed

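The authors deposited whole-number read counts per gene for 9 libraries in 1 table, with no normalization. Per the submitters' processing notes, Trim Galore, STAR, DESeq2 and hg38 were used, and per the labels' protocols the library kit was directional. The sources used here do not name the versions, read counter, strand setting or annotation, so overlapping and antisense genes may not be told apart. Gene names matched 60415 of 67071 rows.

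Samples were grouped by title. Genes passing filterByExpr (minimum count 10) were fitted with edgeR 4.0.16 in R 4.3.3 (TMM scaling, quasi-likelihood test, a mean per group over 9 libraries, common coefficient of variation 2.74%), with calls made under 0.05 after Benjamini-Hochberg adjustment. The script was tested on simulated data. Alternatives used limma 3.58.1, DESeq2 1.42.0, other filters, scalings and thresholds, a replicate block, removal of trends with GC content and exonic length (GENCODE 29), and leaving out each library. The members and lists were chosen with earlier results of these data known. Named genes are all members, CHD9, and the 5 highest and 5 lowest of the wider list of at least 5 CPM called alike in the mean and with each hairpin. Levels per library are given for the highest and lowest of each role and for genes past a mean log2 change of 0.3. Libraries of a group differed by more than sampling noise (chi-square per degree of freedom 1.72 to 2.86).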

Additional observations from a re-analysis of the deposited data

Results flagged for a closer look

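The log2 fold changes against shGFP differed between the hairpins, by the edgeR test of hairpin 1 against hairpin 2 with Benjamini-Hochberg adjustment, for 13 members. The difference was 0.13 for POLR1C, 0.11 for NOP14 and 0.07 for NPM1, which were higher with hairpin 1. It was -0.34 for WDR75, -0.19 for UTP4, -0.17 for UTP15, -0.17 for UTP20, -0.16 for DDX21, -0.11 for BOP1, -0.11 for WDR43, -0.09 for PES1, -0.08 for GNL3 and -0.06 for NOLC1, which were lower with hairpin 1. Over all alternatives other than the stricter thresholds, WDR75, UTP4, UTP20, BOP1 and DDX21 kept this difference.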

How the results depend on the processing

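Of 4284 log2 fold changes of members and named genes of the wider list under 21 alternatives, 3907 kept their side of the threshold, 301 lost a call, 37 gained one and 39 changed sign with a call in at least 1 fit. Of the 3907, 130 changed sign with a call in neither fit.

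Same-numbered libraries of different groups correlated at -0.02 to 0.04 in their deviations from group means, beside -0.05 to 0.04 for other pairs. No shared effect of the replicate number was seen, but this cannot show whether libraries were prepared together. With the number as a block, 19, 18 and 14 members were called for the mean, hairpin 1 and hairpin 2, and 13 between the hairpins, the same counts as without it. CHD9 was -0.38, -0.52 and -0.24.

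Reversals came with the GC and length correction, given here without and then with the replicate block. For the mean of both hairpins they were WDR43 (0.1013 and 0.1003), RRP12 (-0.0398 and -0.039), PES1 (-0.0702 and -0.0707), BOP1 (-0.095 and -0.0953), WDR12 (0.0195 and 0.0194), GNL3 (0.0674 and 0.0664), DDX21 (0.0334 and 0.0336) and NPM1 (0.0583 and 0.0579). For hairpin 1 they were RRP9 (-0.0047 and -0.0049), WDR43 (0.0925 and 0.0927), RRP12 (-0.0517 and -0.0519), BOP1 (-0.1994 and -0.1997), WDR12 (0.0446 and 0.0447), GNL3 (0.0671 and 0.0668), TAF1D (0.0248 and 0.0248), HEATR1 (0.0026 and 0.0026) and NOL11 (0.0067 and 0.0068). For hairpin 2 they were GNL3 (0.0677 and 0.066) and DDX21 (0.0729 and 0.0732), and between the hairpins GNL3 with the block (8e-04). The cause was not tested.

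A minimum fold change of 1.2 left 0 members in the mean, 1 lower (WDR75) and 0 higher with hairpin 1, 0 with hairpin 2 and 0 between hairpins (edgeR glmTreat; at an unadjusted p under 0.05, 1, 1, 0 and 1, all lower), and for the wider list 3 in the mean (1 higher, 2 lower), 10 with hairpin 1 (2 higher, 8 lower), 0 with hairpin 2 and 0 between hairpins (unadjusted 2 and 3). Of all 16855 genes it left 2013 in the mean, 2789 with hairpin 1, 1273 with hairpin 2 and 446 between hairpins. CHD9 was then called with hairpin 1, and not for the mean (-0.38), hairpin 2 (-0.24) or the difference (-0.28). In the test without a minimum fold change, the replicate block together with the composition correction also ended the CHD9 difference (-0.18). With all 6 knockdown libraries as a single group, 9 members were called in the mean (6 higher, 3 lower) and 14 wider genes higher. All genes then gave 2623 higher and 2649 lower of 16855. At 0.01, 26 wider genes were called with hairpin 2 (12 lower), and 6 members (1 higher, 5 lower) and 25 wider genes (7 higher) between hairpins. All genes at 0.01 gave 4399 with hairpin 2 (2303 lower) and 3423 between hairpins (1898 higher, 1525 lower). The DESeq2 Wald test called 13 wider genes lower with hairpin 2, beside 2632 of all genes. The correction left 2 members lower with hairpin 2, with or without the block, beside 3430 or 3426 of all genes. Without scaling factors, 0 members (edgeR; 1 unadjusted) and 4 wider genes were higher and 42 wider genes lower between hairpins, with a member median of -0.0736. All genes then gave 1826 higher and 3189 lower, with a median of -0.0444.

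Leaving out each library in turn gave 14 to 19 members called in the mean (9 to 10 higher, 5 to 9 lower), 14 to 19 with hairpin 1 (7 to 10 and 7 to 9), 11 to 14 with hairpin 2 (7 to 9 and 4 to 5) and 8 to 13 between hairpins (2 to 3 and 6 to 11). For the wider list it gave 46 to 53 (16 to 22 and 29 to 32), 54 to 63 (20 to 27 and 31 to 36), 32 to 43 (16 to 22 and 14 to 22) and 27 to 40 (7 to 13 and 20 to 27). The fewest, 5 members lower in the mean and 14 wider genes lower with hairpin 2, came without shGFP replicate 3. Of all 17067 genes tested then, 3351 were lower in the mean and 2650 lower with hairpin 2. CHD9 ranged over -0.43 to -0.34, -0.58 to -0.49, -0.29 to -0.20 and -0.34 to -0.25. Member medians ranged over 0.01 to 0.03, -0.01 to 0.02, 0.01 to 0.03 and -0.04 to -0.02.

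FBL and RRN3 had too few counts to be tested, and of the tested members NOP2 (34 to 55 counts per library) and PPAN (114 to 168) had the fewest. Low counts limit what could be detected for these genes, and the cause of the low counts was not tested.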
